A study of Mus musculus with 19 samples.

Results

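*Musclin*, listed as *Ostn*, was described together with the natriuretic peptide genes *Nppa*, *Nppb* and *Nppc* and the receptor genes *Npr1*, *Npr2* and *Npr3*. These 7 genes were chosen by their symbols, out of the 55740 genes listed in at least 1 of the tables for 7 tissues, BAT and iWAT. All 7 were found in the tables for 7 tissues and BAT, and 4 of them, *Ostn* and the receptors, in the table for iWAT, which lists 13756 genes, so the natriuretic peptides were not analysed here in iWAT. The 7 tissues came from chow-fed C57BL/6J WT mice with 1 library each. Per the study's methods all chow-fed mice were between 2 and 8 months old, and no narrower age is given for these. The other 12 libraries came from inguinal white adipose tissue (iWAT) and brown adipose tissue (BAT) of male MCK-Musclin and WT mice, with 3 libraries per genotype in each depot. All of those mice were 5 months old, ate chow and were kept at 8 °C for 1 week, so cold was shared by both genotypes. In MCK-Musclin mice the *Musclin* coding sequence is driven by the muscle creatine kinase (MCK) promoter, which is active in skeletal muscle. The transgene was established in several founder lines on a C57BL/6J background, and the line sequenced is not given in the sources used here.

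Natriuretic peptides are small hormones with a ring that is closed by a pair of cysteines. *Nppa* encodes the atrial peptide ANP, *Nppb* the B-type peptide BNP and *Nppc* the C-type peptide CNP. ANP and BNP act on Npr1 and CNP acts on Npr2, and both receptors are guanylyl cyclases that make cGMP, which in adipocytes activates cGMP-dependent protein kinase, lipolysis and thermogenic genes. Npr3 has no cyclase domain and removes natriuretic peptides from the circulation, and it can couple to inhibitory G proteins. Musclin is a peptide secreted by muscle that resembles the natriuretic peptides and binds Npr3.

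A part of *Ostn* that resembles the natriuretic peptides is shown beside the ring of the peptides encoded by *Nppb* and *Nppc*. Each is given as 51 coding bases of the GENCODE transcript on GRCm38. Other parts of *Ostn* were not compared. The stretches lie at chr16:27346896-27346946 on the plus strand for *Ostn*, chr4:147986464-147986514 on the plus strand for *Nppb* and chr1:86669667-86669717 on the minus strand for *Nppc*. Capitals mark the 19 bases that are the same in all 3.
Ostn: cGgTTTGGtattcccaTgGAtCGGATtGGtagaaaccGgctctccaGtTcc
Nppb: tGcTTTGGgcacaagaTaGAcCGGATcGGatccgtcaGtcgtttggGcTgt
Nppc: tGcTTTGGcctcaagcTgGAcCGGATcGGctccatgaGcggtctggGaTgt

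The codons at both ends of the stretch encode cysteine in *Nppb* and *Nppc*, and neither does so in *Ostn*. *Ostn* shared 23 of 51 bases with *Nppb* (45.1%) and 22 with *Nppc* (43.1%), while *Nppb* and *Nppc* shared 40 with each other (78.4%). The stretch covered codons 112 to 128 of 130 in *Ostn*, and in each of the 3 genes it lay towards the end of the coding sequence. FPKM, the fragments of a gene scaled by its exon length and by the mapped fragments of a library, is counted over whole transcripts, and 393 of the 1423 bases of the *Ostn* transcript are coding (27.6%). A transgene that holds the coding sequence alone gives fragments over that fraction of the length used for scaling.

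The FPKM of a library summed to between 393682 and 711437 in the 7 tissues, 676362 and 720852 in BAT and 364710 and 384104 in iWAT. The 10 most abundant genes took 17% to 52.4% of the sum in the tissues, 48.4% to 51.3% in BAT and 11.9% to 13% in iWAT, so levels set side by side across tables rest on separate normalizations and were not tested. Read counts were not analysed here, and no counting interval was given. Defining markers matched the tissue labels, with *Alb* at 22399 FPKM in liver, *Snap25* at 4072 in brain, *Vil1* at 443 in small intestine and *Tnnt3* at 27391 in tibialis anterior (TA) muscle, each highest there among the 7. The heart library was high in ventricular genes (*Myl2* at 1656 FPKM and *Myl3* at 4536) and low in atrial ones (*Myl7* at 3.52 FPKM, *Sln* at 0.645 and *Bmp10* at 0). All 4 atrial genes examined summed to 16.9 FPKM there and all 4 ventricular ones to 6455. White adipose tissue had 567 FPKM of *Lep* and 0 of *Ucp1*, and brown adipose tissue had 467 of *Ucp1*. In iWAT, markers of B cells, T cells and lymph node stroma were higher in the MCK-Musclin libraries, with no overlap of the genotypes in the summed level of any of these 3 lists. The 4 B cell genes summed to 109 to 211 FPKM in the WT libraries and to 239 to 326 in the transgenic ones. Their part in the results below was not tested, and in bulk tissue fewer cells of a type and less RNA per cell cannot be told apart.

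The ligands were each found in 1 tissue or nearly so. *Ostn* had 7.43 FPKM in TA muscle. Brain (0.164 FPKM) and white adipose tissue (0.148 FPKM) followed, and heart, liver, brown adipose tissue and small intestine were listed at 0. TA muscle therefore held 96.0% of the *Ostn* FPKM summed over the 7 tissues, and brain and white adipose tissue held 2.12% and 1.92%. *Nppa* had 95.1 FPKM in heart and 1.30 in TA muscle, so that heart held 98.6% of its sum, and it was listed at 0 in the other 5 tissues. The 5 heart muscle marker genes were also found in that TA library, summing to 217 FPKM there and to 32769 in heart, with *Myh6* at 58.7 and 14088, and their part in the *Nppa* value was not tested. *Nppb* had 37.0 FPKM in heart and *Nppc* had 1.82 FPKM in brain, and each was listed at 0 in the other 6 tissues. All 3 natriuretic peptide genes were listed at 0 in the 6 BAT libraries of both genotypes. *Corin*, the protease that activates ANP, had 33.5 FPKM in heart and at most 0.151 in any other tissue, the value of TA muscle.

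**Figure D1:**
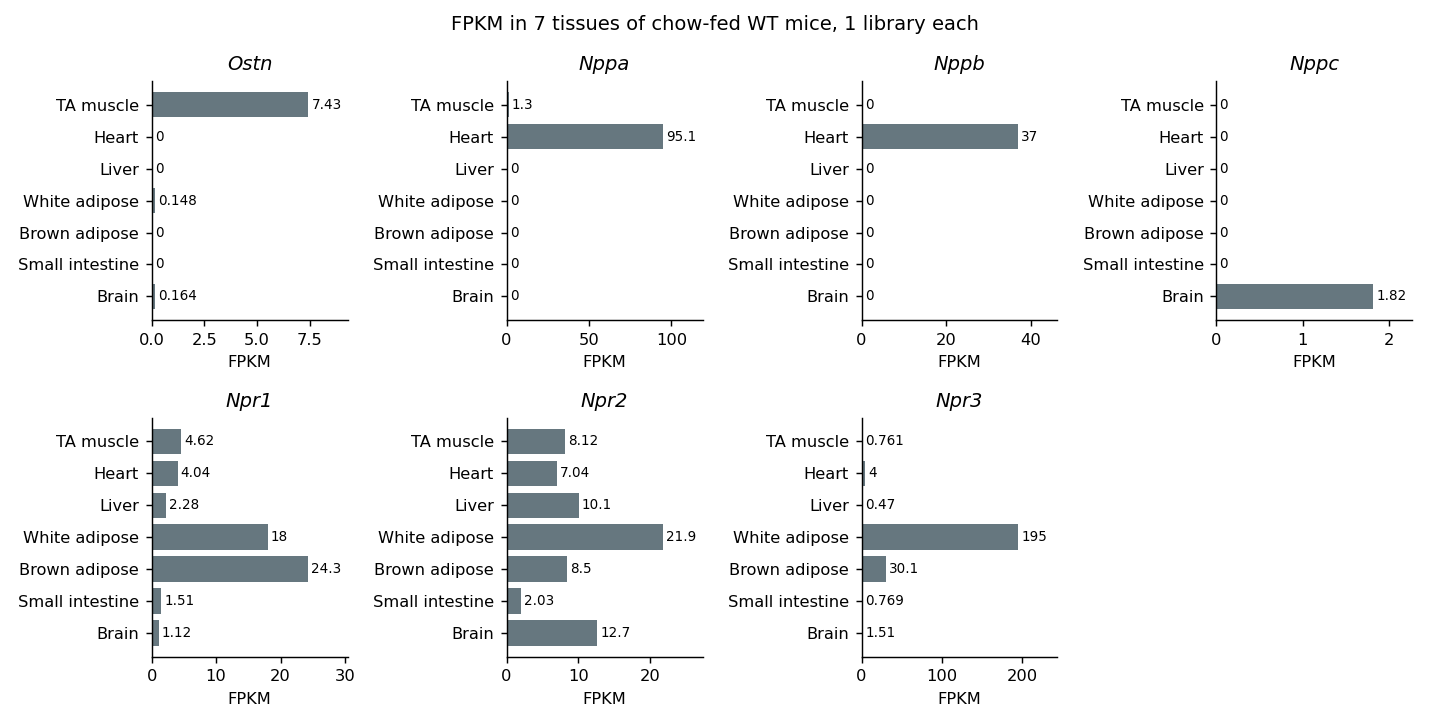
FPKM (horizontal axis, linear, its own range in each panel) of the 7 genes in 7 tissues of chow-fed WT mice, with 1 bar per library and no replicates. The ligands *Ostn*, *Nppa*, *Nppb* and *Nppc* are each highest in 1 tissue, while the receptor genes are above 0 in all 7, with *Npr3* at 195 FPKM in white adipose tissue.

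*Nppb* and *Nppa*, the pair found in heart, lie next to each other on the plus strand of chromosome 4, from 147985788 to 147987205 and from 148000722 to 148002079, with 13516 bases between them. Their promoters are shown because both genes were high in the same library. The sequences are RefSeq's for GRCm38.p6, 250 bases before to 50 after the annotated start, at chr4:148000472-148000771 for *Nppa* and chr4:147985650-147985949 for *Nppb*. Capitals mark letters that were searched on both strands. TATAAA is found in TATA boxes, GATAA in sites of GATA factors and TNAAGTG in sites of Nkx2-5.
Nppa promoter: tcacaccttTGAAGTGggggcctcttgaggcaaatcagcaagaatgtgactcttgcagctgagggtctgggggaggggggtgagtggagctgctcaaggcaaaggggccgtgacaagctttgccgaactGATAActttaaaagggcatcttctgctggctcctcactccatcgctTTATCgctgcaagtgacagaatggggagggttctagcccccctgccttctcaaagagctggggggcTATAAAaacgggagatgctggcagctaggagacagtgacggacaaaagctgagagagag
Nppb promoter: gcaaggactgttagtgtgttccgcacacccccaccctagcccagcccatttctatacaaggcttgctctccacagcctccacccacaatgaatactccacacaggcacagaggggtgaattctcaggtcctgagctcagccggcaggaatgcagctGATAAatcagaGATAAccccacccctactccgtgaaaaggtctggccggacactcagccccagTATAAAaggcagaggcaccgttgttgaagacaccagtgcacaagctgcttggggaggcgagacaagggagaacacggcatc

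Both promoters held TATAAA once and GATAA at 2 places, and the *Nppa* promoter held TNAAGTG once. TATAAA began 9 bases before the annotated start in *Nppa* and 31 bases before it in *Nppb*. Of 32851 mouse promoters of this length, 13.6% held TATAAA, 25.4% held GATAA and 11.5% held TNAAGTG. The *Nppc* promoter also held TATAAA once and neither of the others, and the promoters of *Npr1*, *Npr2* and *Npr3* held none of the 3. These matches are letters in a window, and no binding was measured.

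The receptor genes were found in every tissue, and white adipose tissue was first or second in each of them. *Npr1*, the receptor of ANP and BNP, had 24.3 FPKM in brown adipose tissue, 18.0 in white adipose tissue, 4.62 in TA muscle, 4.04 in heart, 2.28 in liver, 1.51 in small intestine and 1.12 in brain. *Npr2*, the receptor of CNP, had 21.9 FPKM in white adipose tissue, 12.7 in brain, 10.1 in liver, 8.50 in brown adipose tissue, 8.12 in TA muscle, 7.04 in heart and 2.03 in small intestine. *Npr3*, the clearance receptor, had 195 FPKM in white adipose tissue, 30.1 in brown adipose tissue, 4.0 in heart, 1.51 in brain, 0.769 in small intestine, 0.761 in TA muscle and 0.470 in liver. The spread between the highest and the lowest tissue was thus 10.8-fold for *Npr2*, 21.7-fold for *Npr1* and 414-fold for *Npr3*. White adipose tissue held 83.8% of the *Npr3* sum and brown adipose tissue 13%. With 1 library per tissue the order of neighbouring tissues has no replicate check. With median-ratio scaling *Npr2* was highest in TA muscle, at 14.0 against 13.8 in white adipose tissue, and as TPM *Npr1* was highest in white adipose tissue, at 43 against 34.2 in brown adipose tissue. *Npr3* was highest in white adipose tissue under all 3 other scalings run.

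The balance of *Npr1* to *Npr3* differed between tissues in both directions. The log2 ratio of *Npr1* to *Npr3*, with 0.1 added to each FPKM, was 2.45 in TA muscle, 2.06 in liver, 0.89 in small intestine, 0.02 in heart, -0.31 in brown adipose tissue, -0.40 in brain and -3.42 in white adipose tissue. TA muscle, the tissue with *Ostn*, thus had the least *Npr3* relative to *Npr1*, and white adipose tissue had 10.8 times as much *Npr3* as *Npr1*. *Npr2* exceeded *Npr1* in 6 of the 7 tissues, with 11.3 times the *Npr1* level in brain, and was lower in brown adipose tissue, at 0.349 times.

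Among 18327 genes with at least 1 FPKM in some tissue, those whose log2(FPKM + 1) followed *Ostn* most closely over the 7 tissues were *Gm29773*, *Myhas* and *Gm7967* (Pearson r from 0.999 to 0.998). *Myhas* had 30.2 FPKM in TA muscle, *Gm29773* had 10.2 and *Gm7967* had 5.41, and 74 genes in all had an r of at least 0.99 with *Ostn*. For *Npr3* they were *Gm10687* (0.993), *Dram1* (0.992) and *A730020M07Rik* (0.987), of which *Dram1* had 80.1 FPKM in white fat and 10.8 in brown fat. *Npr1* was followed by *Lias* (0.977), *Bcl6b* (0.972) and the lipase gene *Pnpla2* (0.972), which had 932 FPKM in brown and 731 in white adipose tissue. *Npr2* was followed by *Rassf8* (0.961), *Commd5* (0.950) and *Rnf11* (0.937). *Nppa* was followed by *H2bu1-ps*, *Gm48630* and *Gm44087* (all 1.00 when rounded), which like *Nppa* were highest in heart with a lower level in TA muscle. Genes seen in 1 tissue tie at 1.00, as for *Nppb* (*Rhd*, *Gm9955* and *Gm12295*) and *Nppc* (*Th*, *Oprm1* and *Nkx2-1*), and 1092 genes had an r of at least 0.99 with *Nppc*. These values describe 7 points that share 1 library per tissue.

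*Ostn* was then examined in fat of the transgenic mice, where it reports the transgene and the endogenous gene together. In BAT, all 3 WT libraries had *Ostn* listed at 0, and it reached 37.9, 31.6 and 30.3 FPKM in MCK-Musclin libraries 1 to 3. All 3 MCK-Musclin libraries were far above the WT libraries, and the gene passed the filter of a mean of 1 FPKM only through them. The difference in log2(FPKM + 1) was 5.09 ± 0.12 (SE, n = 3 per genotype, 95% interval 4.81 to 5.37, limma adjusted p = 3.83e-06), and no fold was given against a group listed at 0. *Ostn* was the only 1 of 10893 genes tested in BAT with an adjusted p under 0.05 (0.00918%).

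In iWAT, *Ostn* was listed at 0, 0 and 0.225 FPKM in WT libraries 1 to 3 and had 0, 5.17 and 4.21 FPKM in MCK-Musclin libraries 1 to 3. The first MCK-Musclin library was at the level of the WT libraries and the other two were above them, so the groups overlapped. Here too the gene passed the filter only through its high libraries. The difference in log2(FPKM + 1) was 1.57 ± 0.63 (SE, n = 3 per genotype, 95% interval 0.08 to 3.06, limma adjusted p = 0.281). It passed the cutoff that the study used in iWAT, an unadjusted p under 0.05 and a log2 change above 0.5, as did 5.94% of the 12197 genes tested. The study applied its cutoffs to DESeq2 results. Here and below they were applied to limma p-values and to differences in log2(FPKM + 1), so the genes that pass can differ from the study's. No gene in iWAT had an adjusted p under 0.05 (0% by limma, with 2012 genes at an unadjusted p under 0.05). Leaving out 1 library at a time gave differences from 1.09 to 2.41. The highest was without MCK-Musclin library 1, the transgenic library at 0, with a limma adjusted p of 0.0732. All alternatives ranged from 0.0699 to 0.541 in adjusted p.

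**Figure D2:**
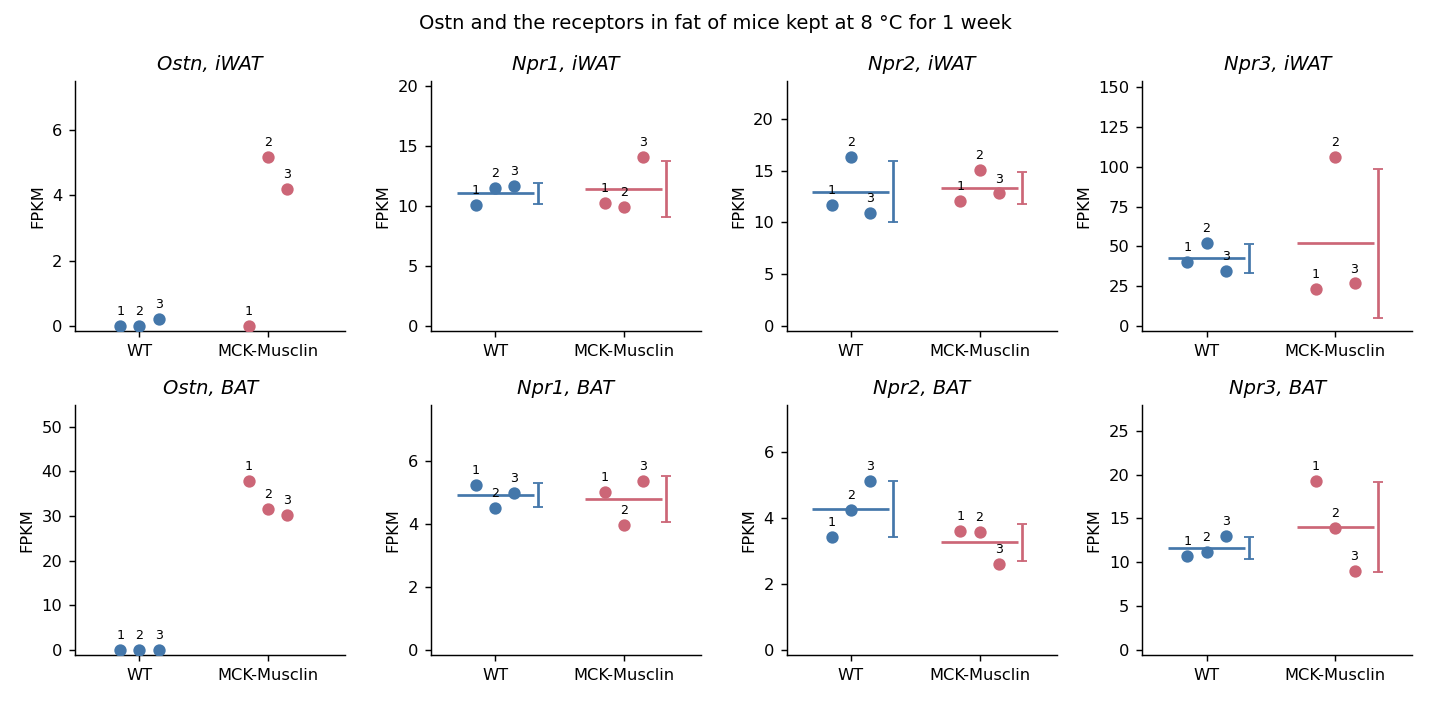
FPKM (vertical axis, linear, its own range in each panel) of *Ostn*, *Npr1*, *Npr2* and *Npr3* in iWAT (top) and BAT (bottom) of WT and MCK-Musclin mice kept in the cold, with 1 point per library and its replicate number. For the receptors lines are group means and bars are SD (n = 3), and only *Ostn* in BAT separates the genotypes, with 30.3 to 37.9 FPKM against 0.

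Skeletal muscle mRNA was present in most of these fat libraries, and *Ostn* was set beside it. The 12 fast skeletal muscle genes examined, such as *Acta1*, *Ckm*, *Tnnt3* and *Myh4*, summed to 603, 841 and 532 FPKM in WT libraries 1 to 3 of BAT and to 1879, 881 and 1273 in the MCK-Musclin libraries. All 12 were higher in MCK-Musclin BAT and 11 of them passed the cutoff that the study used in BAT, an unadjusted p under 0.05 and a log2 change above 0.3, which 4% of the 10893 genes tested passed in either direction, and none had an adjusted p under 0.05 (limma). WT library 2 and MCK-Musclin library 2 of BAT had nearly the same muscle sum, 841 and 881 FPKM, and had *Ostn* at 0 and at 31.6 FPKM. In iWAT the muscle sum was 15.9, 866 and 4847 FPKM in WT libraries 1 to 3 and 17.5, 173 and 202 FPKM in the MCK-Musclin libraries.

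The iWAT libraries with the least muscle mRNA were the first of each genotype, and both had *Ostn* at 0. *Ckm* and *Myh4* were at 0 in WT library 1 of iWAT, and *Ckm* and *Pvalb* were at 0 in MCK-Musclin library 1. Per 1000 FPKM of the 12 muscle genes, *Ostn* had 20.2, 35.9 and 23.8 FPKM in MCK-Musclin libraries 1 to 3 of BAT, and 29.8 and 20.8 in MCK-Musclin libraries 2 and 3 of iWAT. The same quantity was 0.0464 in WT library 3 of iWAT and 0.0510 in WT TA muscle, and it was 0.369 in white adipose tissue and 1.27 in brain of the 7-tissue table, so it was not constant among WT libraries. This ratio is taken within a library, so the scaling of the tables cancels in it. The 5 MCK-Musclin fat libraries with *Ostn* above 0 had 20.2 to 35.9, above every WT library. MCK-Musclin library 1 of iWAT, which is not in that range, was at 0, as were the WT libraries of BAT. Since the 5 were picked by their *Ostn* level, their place above WT is not a separate result. Expression in fat cells and in muscle fibres within the sample cannot be told apart in bulk tissue.

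**Figure D3:**
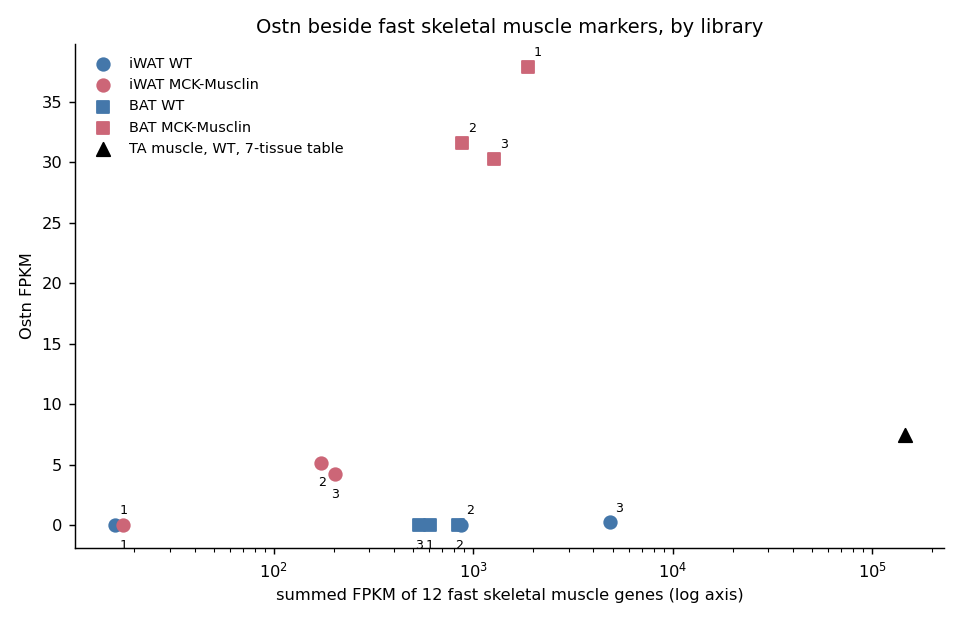
*Ostn* FPKM (vertical axis, linear) against the summed FPKM of 12 fast skeletal muscle genes (horizontal axis, log scale), with 1 point per fat library numbered by replicate and WT TA muscle as a triangle. MCK-Musclin library 1 of iWAT lies at 0 *Ostn* and 17.5 FPKM of muscle genes, beside WT library 1, and WT libraries stay at or under 0.225 FPKM of *Ostn* up to a muscle sum of 4847.

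The receptors of the natriuretic peptides were examined next, beginning with the guanylyl cyclases. *Npr1* had 10.1, 11.5 and 11.7 FPKM in WT iWAT and 10.3, 9.92 and 14.1 in MCK-Musclin iWAT. *Npr2* had 11.7, 16.3 and 10.9 FPKM in WT iWAT and 12.1, 15.1 and 12.8 in MCK-Musclin iWAT. The genotypes overlapped for both genes, and the difference in log2(FPKM + 1) was 0.03 ± 0.14 for *Npr1* (SE, n = 3 per genotype, 95% interval -0.31 to 0.36, limma adjusted p = 0.948) and 0.05 ± 0.16 for *Npr2* (95% interval -0.33 to 0.44, adjusted p = 0.899). The sign of both turned under median-ratio scaling, to -0.05 for *Npr1* and -0.02 for *Npr2*.

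In BAT, *Npr1* had 5.26, 4.51 and 5.0 FPKM in WT and 5.03, 3.98 and 5.38 in MCK-Musclin libraries. *Npr2* had 3.41, 4.25 and 5.12 FPKM in WT and 3.59, 3.58 and 2.61 in MCK-Musclin libraries. The genotypes overlapped again, although the *Npr2* mean was 4.26 ± 0.855 FPKM in the WT group against 3.26 ± 0.564 in the transgenic group (SD, n = 3). The difference in log2(FPKM + 1) was -0.04 ± 0.13 for *Npr1* (95% interval -0.35 to 0.27, limma adjusted p = 0.993) and -0.30 ± 0.17 for *Npr2* (95% interval -0.69 to 0.09, adjusted p = 0.968).

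Of the 3 receptor genes, the clearance receptor *Npr3* had the highest coefficient of variation among MCK-Musclin libraries, 89.5% in iWAT and 36.6% in BAT, while *Npr2* had the highest among WT libraries, 22.7% and 20.1%. It had 40.5, 52.2 and 34.6 FPKM in WT iWAT and 23.5, 106 and 26.8 in MCK-Musclin iWAT. MCK-Musclin library 2 lay above all WT libraries and the other two lay below all of them, which gave 42.4 ± 8.97 FPKM for the WT group against 51.9 ± 46.5 for the transgenic group (SD, n = 3). The difference in log2(FPKM + 1) was -0.04 ± 0.52 (SE, 95% interval -1.27 to 1.19, limma adjusted p = 0.980), so an interval of this width includes changes of more than 1 log2 unit in either direction. Leaving out 1 library at a time gave differences from -0.72 to 0.35. The lowest was without MCK-Musclin library 2, with a limma adjusted p of 0.254, where all alternatives ranged from 0.254 to 0.981. That library is the 1 above all WT libraries, so the fit without it is not a separate result.

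In BAT, *Npr3* had 10.7, 11.2 and 13.0 FPKM in WT and 19.3, 13.9 and 8.99 in MCK-Musclin libraries. Of the MCK-Musclin libraries 2 lay above the WT range and 1 below it, with means of 11.6 ± 1.23 FPKM for the WT group against 14.1 ± 5.14 for the transgenic group (SD, n = 3). The difference in log2(FPKM + 1) was 0.20 ± 0.24 (SE, 95% interval -0.36 to 0.76, limma adjusted p = 0.972). Without MCK-Musclin library 3 it was 0.47, with an adjusted p of 0.887, and without MCK-Musclin library 1 it was -0.04.

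*Lep* in iWAT and *Col3a1* in BAT were set beside *Npr3*. They were chosen after their values were seen, so their match with *Npr3* is not a separate result. *Lep*, the hormone of white adipocytes, had 180, 163 and 151 FPKM in WT iWAT and 68.9, 234 and 117 in MCK-Musclin iWAT, so that *Lep* and *Npr3* were both highest in MCK-Musclin library 2 and both lowest in MCK-Musclin library 1. The 6 adipocyte marker genes together, of which *Lep* is 1, did not follow *Npr3* in this way, since they summed to 14221, 15264 and 15238 FPKM in WT iWAT and to 12801, 13352 and 14576 in MCK-Musclin iWAT. *Col3a1*, a fibroblast gene, had 12.8, 12 and 34 FPKM in WT BAT and 40.5, 17.6 and 11.2 in MCK-Musclin BAT. In BAT *Col3a1* and *Npr3* were both highest in MCK-Musclin library 1 and both lowest in MCK-Musclin library 3. The 6 fibroblast and preadipocyte genes together, of which *Col3a1* is 1, summed to 33.2, 26.5 and 61.1 FPKM in WT BAT. In MCK-Musclin BAT they summed to 70.5, 40.6 and 29 FPKM, so their lowest value was that of WT library 2. *Lep* did not order the BAT libraries as *Npr3* did, since MCK-Musclin library 1 had 2.42 FPKM and the highest value, 6.44, was that of WT library 3. In iWAT *Col3a1* was at 91.7 to 148 FPKM. Whether cell makeup had a part in the *Npr3* values was not tested.

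None of the receptor genes separated the genotypes in either depot, and of the 4 genes tested in BAT only *Ostn* did. By comparison, 10% of the genes tested in BAT and 23.3% of those in iWAT had groups free of overlap, and in iWAT none of the 4 genes separated them.

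Both depots had more *Npr3* than *Npr1* in every library. In iWAT the log2 ratio of *Npr1* to *Npr3* was -1.99, -2.18 and -1.55 in WT and -1.17, -3.40 and -0.92 in MCK-Musclin libraries. The means were -1.90 ± 0.32 and -1.83 ± 1.36 (SD, n = 3), which differed by 0.07 (exact two-sided permutation test, p = 1, where 0.1 is the smallest p possible). In BAT the ratio was -1.01, -1.29 and -1.36 in WT and -1.92, -1.78 and -0.73 in MCK-Musclin libraries, with a difference of the means of -0.26 (exact two-sided permutation test, p = 0.6). In both depots the MCK-Musclin libraries lay on both sides of the WT range. The WT levels in the cold were 34.6 to 52.2 FPKM of *Npr3* in iWAT and 10.7 to 13.0 in BAT, beside 195 and 30.1 in the white and brown adipose tissue of the 7-tissue table. For *Npr1* they were 10.1 to 11.7 and 4.51 to 5.26, beside 18.0 and 24.3. Table, temperature, possibly age and, for white fat, possibly the depot differ between these values, which cannot be told apart.

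**Figure D4:**
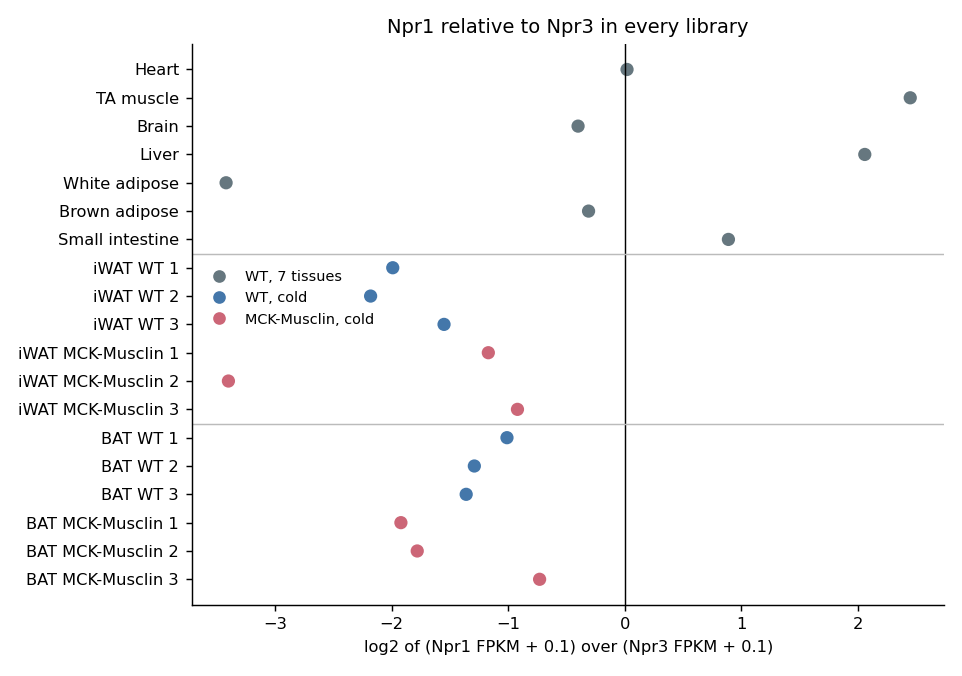
Log2 of *Npr1* FPKM over *Npr3* FPKM, each with 0.1 added (horizontal axis), in all 19 libraries, with grey lines between the 3 tables. Values right of 0 mean more *Npr1*, as in TA muscle (2.45) and liver (2.06), and all 12 cold fat libraries lie left of 0, between -3.40 and -0.73.

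The genes around these receptors were counted in the same fits, beside a median difference of 0.06 over all genes tested in iWAT, where 7482 were higher and 4715 lower, and of -0.01 in BAT, where 5200 were higher and 5693 lower. Groups free of overlap were found for 23.3% of all genes tested in iWAT and 10% in BAT. Of the enzymes that process or degrade natriuretic peptides, 4 of 4 tested had lower values in MCK-Musclin iWAT (median log2 difference -0.27), none of them past an adjusted p of 0.05. Neprilysin (*Mme*), which degrades natriuretic peptides, had 17.2, 16 and 17.1 FPKM in WT and 13.8, 11.8 and 14 in MCK-Musclin iWAT, so every MCK-Musclin library was lower (difference -0.33 ± 0.10 SE, n = 3, limma adjusted p = 0.196). The insulin-degrading enzyme gene *Ide* had a difference of -0.29 with an adjusted p of 0.269 and separated the genotypes in the same direction. *Pcsk6*, a convertase that activates the protease Corin, was the most abundant of the list in iWAT, at 17.3 ± 2.58 FPKM in the WT group against 14.4 ± 2.53 in the transgenic group (SD, n = 3). In BAT 3 of 4 had higher and 1 lower values, and *Mme*, the most abundant of them, had 19.8 ± 0.909 and 19.9 ± 2.94 FPKM (SD, n = 3).

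Other sources of cGMP were counted next. The guanylin receptor gene *Gucy2c* and its ligands *Guca2a* and *Guca2b* were highest in small intestine, at 72.2, 195 and 260 FPKM, and were listed at 0 in all BAT libraries. The endothelial nitric oxide synthase gene *Nos3* was the most abundant of this list in both depots, with 11.6, 13.1 and 11.9 FPKM in WT and 10.5, 9.49 and 11.1 in MCK-Musclin iWAT, where every transgenic library was lower (difference -0.22, adjusted p = 0.339). In BAT its means were 3.27 ± 0.0916 FPKM for the WT group against 3.14 ± 0.110 for the transgenic group (SD, n = 3). Of this list 1 gene was higher and 3 lower in iWAT (median -0.10), and 2 were higher and 1 lower in BAT (median 0.09), none past either threshold.

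Of the genes through which cGMP acts, 5 of 6 had higher values in MCK-Musclin iWAT (median 0.12) and 2 of 4 in BAT (median -0.10). *Vasp*, an actin regulator that cGMP-dependent protein kinase phosphorylates, had 36.1, 27.9 and 27.5 FPKM in WT and 41.5, 41.6 and 46 in MCK-Musclin iWAT. In BAT *Vasp* had 7.73, 5.83 and 6.60 FPKM in WT and 5.39, 5.01 and 4.86 in MCK-Musclin libraries. Every MCK-Musclin library was thus higher than every WT library in iWAT and lower in BAT, with differences of 0.49 (limma adjusted p = 0.158) and -0.34 (adjusted p = 0.968). In these limma fits the BAT value passed the cutoff of the study there, as did 4% of the genes tested in BAT. The iWAT value was just under the size needed. *Ppp1r12a*, which encodes a subunit of myosin phosphatase, was the most abundant of the list, with a difference of 0.17 in iWAT and 0.04 in BAT. *Prkg1*, the cGMP-dependent protein kinase of smooth muscle and fat, was under the filter in both depots, with 0.859, 1.16 and 1.58 FPKM in WT and 0.739, 0.687 and 0.576 in MCK-Musclin iWAT, all below the WT libraries.

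Of the 10 phosphodiesterase and exporter genes tested in iWAT, 3 had higher and 7 lower values (median -0.02). The cutoff of the study was passed by 1 of them, and by 5.94% of all genes tested in iWAT. *Pde1a*, a phosphodiesterase activated by calcium and calmodulin, had 48.7, 50.1 and 49.3 FPKM in WT and 36.3, 37.4 and 29.9 in MCK-Musclin iWAT. It was lower in every MCK-Musclin library, with a difference of -0.51 ± 0.11 (SE, n = 3, limma adjusted p = 0.144). *Pde3b*, the phosphodiesterase that cGMP inhibits in adipocytes, was the most abundant, with 77.3, 94.4 and 85.2 FPKM in WT and 70.5, 69.3 and 71.6 in MCK-Musclin iWAT (difference -0.27, adjusted p = 0.25). In BAT none of the 7 genes tested passed either threshold, and the differences of *Pde1a* and *Pde3b* were -0.15 and 0.08. *Gnai2*, the most abundant inhibitory G protein gene, had 222 ± 20.5 FPKM in WT iWAT against 267 ± 20.2 in that of transgenic mice (SD, n = 3, difference 0.27, adjusted p = 0.295), and its difference in BAT was -0.03.

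The genes of lipolysis and thermogenesis listed as downstream of cGMP all had lower values in MCK-Musclin iWAT (7 of 7, median -0.26). Of them 2 passed the cutoff of the study there, as did 5.94% of all genes tested (615 higher and 110 lower). The study itself found little change in the cGMP content of iWAT and BAT of MCK-Musclin mice in the cold. In plasma of such mice it reported higher CNP than in controls, with ANP largely unchanged. Whether cGMP had a part in the values of these genes was not tested. *Ucp1*, the uncoupling protein of thermogenic fat, had 130, 248 and 346 FPKM in WT and 173, 31.6 and 2.91 in MCK-Musclin iWAT (difference -3.00 ± 1.21 SE, adjusted p = 0.282). *Ppargc1a*, a coactivator of thermogenic genes, had 7.16, 7.23 and 6.51 FPKM in WT and 6.34, 2.96 and 2.01 in MCK-Musclin iWAT (difference -0.84 ± 0.30 SE, adjusted p = 0.233). *Pnpla2*, the adipose triglyceride lipase gene and the most abundant of the list in iWAT, had 1202 ± 86.6 FPKM in the WT group against 983 ± 66.8 in the transgenic group (SD, n = 3, difference -0.29, adjusted p = 0.279). In BAT 2 of the 7 had higher and 5 lower values (median -0.05), none past either threshold, and *Ucp1* had 2778 to 3792 FPKM in WT and 2864 to 3607 in MCK-Musclin libraries. *Tfrc*, which encodes the receptor Tfr1 that the study names for Musclin, had 11.6, 8.98 and 8.67 FPKM in WT and 9.96, 7.11 and 8.73 in MCK-Musclin iWAT (difference -0.16, adjusted p = 0.639) and a difference of 0.18 in BAT (adjusted p = 0.972).

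**Figure D5:**
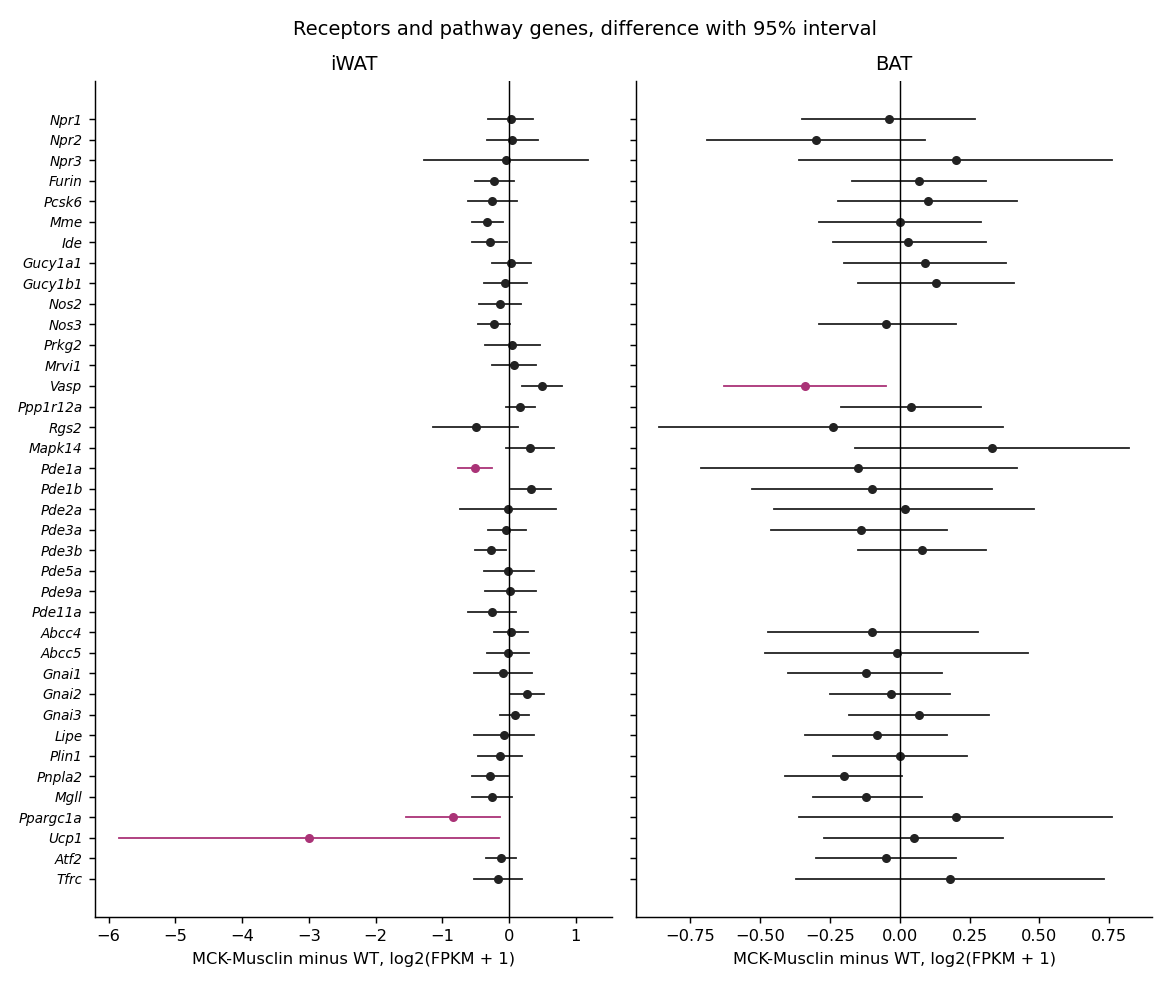
Difference between MCK-Musclin and WT in log2(FPKM + 1) with its 95% interval from limma (horizontal axes, on separate scales), for the receptors and pathway genes that passed the filter in iWAT (left) and BAT (right), with genes past the cutoff of the study in purple. The receptors *Npr1*, *Npr2* and *Npr3* span 0 in both depots, and *Vasp* lies at 0.49 in iWAT and at -0.34 in BAT. *Mrvi1* is the symbol in the files for *Irag1*, a substrate of cGMP-dependent protein kinase.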

How the data were processed

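The deposited values are FPKM per gene and library, which the authors computed with StringTie after read filtering (fastp, bowtie2) and alignment to mm10 (GRCm38) by HISAT2 2.1.0 without strand, for 7 tissues, BAT and iWAT (19 libraries). The iWAT table also holds 6 columns of the authors' own comparison, which were not used. Repeated lines (287 in each of the tables for 7 tissues and BAT) were used once. Because alignment ignored strand, reads of *Ostn*, *Nppa*, *Npr1*, *Npr2* and *Npr3* and of the antisense genes whose exons overlap theirs (*Gm32312*, *Gm13054*, *Gm16048*, *Gm12473* and *Gm5144*) cannot be told apart.

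In each table separately, limma 3.58.1 was fitted to log2(FPKM + 1) to compare genotypes (eBayes with a trend, R 4.3.3), over genes with a mean of at least 1 FPKM in the 6 libraries, with Benjamini-Hochberg adjustment over all of them and a threshold of 0.05. Single ratios were compared with exact permutation tests (scipy 1.17.1). The fits were run on simulated data with independent noise and shifts added to more abundant genes. That simulation did not resemble *Ostn*, which had little or no signal in WT fat, and does not bear on its results. Per the study's reporting summary, RNA for sequencing came from biologically independent animals in each genotype, so the libraries were treated as replicates.

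The named genes are the 7 members, pathway genes past the adjusted threshold or the cutoff of the study in either depot, the most abundant gene of each list in each depot, the 3 genes most alike to each member across tissues, and markers where a library was checked. *Ide*, *Prkg1*, *Gucy2c*, *Guca2a*, *Guca2b* and *Corin* were added after their values were seen. The members and lists were chosen with earlier results of these data known. The alternatives were other pseudocounts (0.1 and 0.01), filters and scalings, eBayes settings, the replicate number as a block and leaving out each library. The ring stretch of *Nppa* is not reported here.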

Additional observations from a re-analysis of the deposited data

Results flagged for a closer look

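Of 33 pathway and receptor genes tested in both iWAT and BAT, 1 lay on opposite sides of WT in the depots with no overlap of the genotypes in either. *Vasp* was higher in every MCK-Musclin library than in every WT library of iWAT, with a difference of 0.49 in log2(FPKM + 1), and lower in every MCK-Musclin library of BAT, with a difference of -0.34. Of all 9757 genes tested in both depots, 97 (0.994%) lay on opposite sides with no overlap in this way, in either order, against 3.03% of the 33, that is 1 gene. The difference between the depots was not tested, since the tables were normalized separately, and neither value had an adjusted p under 0.05.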

How the results depend on the processing

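*Ostn* in BAT was the 1 member called in each of 18 alternatives, with a limma adjusted p between 1.75e-12 and 0.00115. Its mean reached the filter only through the MCK-Musclin libraries, which carry the transgene, so these calls are not a separate result. The smallest p came from the centring on adipocyte markers described below. No member was called in iWAT under any alternative, where the adjusted p of *Ostn* was 0.0699 to 0.541. With pseudocounts of 0.1 and 0.01 the *Ostn* difference was 8.38 and 11.70 in BAT, and 3.15 and 4.39 in iWAT, against 5.09 and 1.57. Signs turned for differences near 0 in iWAT: *Npr1* was -0.03 as TPM, -0.05 with median-ratio scaling, -0.05 with quantile normalization and -0.03 without the 10 most abundant genes, and *Npr2* was -0.02, -0.02 and -0.01 under the latter 3. Centring on adipocyte markers, chosen after seeing the data, gave 0.16 for *Npr3* in iWAT and 0.10 for *Npr1* in BAT and moved the median of all genes to 0.26 in iWAT and 0.13 in BAT. That centring called 530 genes in iWAT and leaving out WT library 1 called 86, against 0, and in BAT leaving out MCK-Musclin library 1 called 4, against 1. Leaving out 1 library gave 1.09 to 2.41 for *Ostn*, -0.12 to 0.11 for *Npr1*, -0.05 to 0.22 for *Npr2* and -0.72 to 0.35 for *Npr3* in iWAT, and 5.0 to 5.16, -0.11 to 0.07, -0.42 to -0.18 and -0.04 to 0.47 in BAT. The *Npr1* to *Npr3* log2 ratio differed by -0.38 to 0.86 in iWAT and by -0.63 to -0.04 in BAT, and the smallest exact p with 2 libraries against 3 is 0.2.

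The share of *Ostn* in TA muscle was 94.3% as TPM, 95% without the 10 most abundant genes and 98.3% with median-ratio scaling, against 96.0%. The share of *Npr3* in white adipose tissue was 89.3% as TPM and 75.8% with median-ratio scaling, against 83.8%. *Ostn* in iWAT and *Npr1* and *Npr2* in BAT have no value with a mean of at least 5 FPKM. Same-numbered libraries of the genotypes deviated with correlations of 0.06 to 0.23 in iWAT and -0.10 to 0.01 in BAT. For libraries with different numbers the correlations were -0.18 to 0.07 in iWAT and -0.08 to 0.08 in BAT. Whether same-numbered libraries share more than a number was not tested. With the replicate block the *Ostn* difference had an adjusted p of 0.262 in iWAT and 0.00115 in BAT, with 0 and 1 genes called over all genes as without it.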
